A study of Mus musculus with 12 samples.

Results

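The genes examined here encode the agrin-MuSK signalling pathway and the muscle nicotinic acetylcholine receptor. They are Agrn, Lrp4, Musk, Dok7, Rapsn, Chrna1, Chrnb1, Chrnd, Chrne and Chrng, 10 of the 17752 genes in the expression table, and they were found by their gene symbols. The question was whether Musk differed between genotypes alone or together with its postsynaptic partners. RNA-seq had been performed on whole extensor digitorum longus (EDL) of male mice. The EDL is a fast hind limb muscle that lifts the toes. Labelled strNrip1-/- mice carried floxed Nrip1 alleles and a Cre recombinase under the muscle creatine kinase (MCK) promoter, which is active in heart and skeletal muscle. The floxed line was C57BL/6J and the Cre line is given as C57BL/6JN. Their labelled WT (control) littermates lacked Cre. Mice of each genotype were kept sedentary or ran voluntarily on wheels from 8 weeks of age, and mice that ran little were removed from the study. This gave 4 groups of 3 libraries: labelled WT sedentary, labelled strNrip1-/- sedentary, labelled WT trained and labelled strNrip1-/- trained. The unit is FPKM, a count of fragments divided by transcript length and library depth, so levels of different genes are compared per length.

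At the neuromuscular junction (NMJ), agrin released from the motor nerve binds LRP4 on the muscle fiber, and this activates the receptor tyrosine kinase MuSK. Dok-7 binds MuSK and sustains its activity, and rapsyn anchors and clusters acetylcholine receptors beneath the nerve terminal. The adult muscle receptor is built from α1, β1, δ and ε subunits, and the fetal form carries γ in place of ε. In adult muscle fibers most of these genes are transcribed mainly by the few nuclei that lie under the synapse.

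The promoters of the kinase and of the receptor subunits are shown so that the gene that differed between genotypes can be read beside the subunits it serves. They come from RefSeq (GRCm38.p6) and span 250 bases before to 50 bases after a transcription start, written 5′ to 3′ on the strand of the gene. Capitals mark the E-box CAGCTG, a core bound by myogenic helix-loop-helix factors, and the N-box CCGGAA, a core bound by GABP at synaptic promoters.
Musk (chr4:58285712-58286011, + strand): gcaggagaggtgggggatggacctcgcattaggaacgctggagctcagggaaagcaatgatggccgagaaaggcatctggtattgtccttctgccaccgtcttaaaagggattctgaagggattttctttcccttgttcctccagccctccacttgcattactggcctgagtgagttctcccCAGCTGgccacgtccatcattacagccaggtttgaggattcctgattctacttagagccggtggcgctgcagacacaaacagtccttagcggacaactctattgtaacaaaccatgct
Chrna1 (chr2:73580289-73580588, - strand): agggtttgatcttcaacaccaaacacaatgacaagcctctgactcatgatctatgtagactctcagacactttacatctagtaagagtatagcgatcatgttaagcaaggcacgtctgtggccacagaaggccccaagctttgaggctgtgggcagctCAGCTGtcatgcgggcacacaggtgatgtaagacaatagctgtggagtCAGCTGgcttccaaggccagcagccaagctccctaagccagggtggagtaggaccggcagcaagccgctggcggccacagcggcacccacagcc
Chrnb1 (chr11:69795888-69796187, - strand): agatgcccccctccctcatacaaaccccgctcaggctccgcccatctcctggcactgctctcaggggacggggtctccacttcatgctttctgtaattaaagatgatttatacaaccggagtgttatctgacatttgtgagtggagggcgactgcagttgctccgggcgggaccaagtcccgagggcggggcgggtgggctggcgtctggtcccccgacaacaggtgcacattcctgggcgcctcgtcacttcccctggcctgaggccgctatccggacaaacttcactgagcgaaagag
Chrne (chr11:70619145-70619444, - strand): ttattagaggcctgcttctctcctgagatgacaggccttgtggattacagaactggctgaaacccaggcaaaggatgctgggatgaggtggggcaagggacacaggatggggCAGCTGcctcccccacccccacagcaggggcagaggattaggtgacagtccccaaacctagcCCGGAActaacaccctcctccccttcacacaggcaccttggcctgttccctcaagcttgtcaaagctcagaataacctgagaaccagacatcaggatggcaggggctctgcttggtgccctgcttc
Chrng (chr1:87205561-87205860, + strand): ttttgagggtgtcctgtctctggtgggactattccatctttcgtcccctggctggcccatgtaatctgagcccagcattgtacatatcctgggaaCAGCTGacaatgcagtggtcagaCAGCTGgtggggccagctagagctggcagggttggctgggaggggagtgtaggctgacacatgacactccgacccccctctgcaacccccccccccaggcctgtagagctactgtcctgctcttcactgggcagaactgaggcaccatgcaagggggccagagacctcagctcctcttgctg

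Windows were found for 7 of the 10 genes, 9 windows in all, since Agrn and Dok7 had more than 1 start. The entries used here held none for Lrp4, Rapsn or Chrnd. The search covered both strands and 3 motifs: the E-box, the N-box and AGGTCA, the half-site of many nuclear receptors. No matches overlapped. The Musk window held 1 E-box, which began 68 bases before the start. Chrna1 held 2 E-boxes, at 92 and 44 bases before its start, and Chrng held 2, at 155 and 132 bases. The Chrne window held 1 E-box at 138 bases and the only N-box, at 76 bases before its start. No window of Agrn, Dok7 or Chrnb1 held either motif, and the only half-site lay in 1 of the Dok7 windows. Of 32851 mouse windows of this length, 16.3% held the E-box, 14.9% the N-box and 16.3% the half-site.

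Nrip1, the targeted gene, went against its labels. It stood at 2.53 to 4.76 FPKM in the 6 labelled WT libraries and at 14.9 to 20.7 FPKM in the 6 labelled strNrip1-/- libraries, a log2 difference of 2.11 over both training states (limma adjusted p = 8.19e-06). Per the study's methods the loxP sites flank the last exon, which holds the whole coding sequence, and a value per gene does not show which exons its fragments came from. All genotype directions below rest on the labels, and an exchange of the labels would turn every one of them. The libraries corresponded to an estimated 20.05 to 29.1 M fragments (M, 1e6). Myh7, the slow myosin heavy chain, stood above the other libraries in labelled WT sedentary replicate 2, labelled strNrip1-/- sedentary replicate 1 and labelled WT trained replicate 2. In these the 6 slow muscle markers summed to 335, 367 and 574 FPKM, against 97.8 to 298 FPKM in the other 9 libraries. The labels do not say that libraries came from separate animals, so p-values measure the spread between these libraries.

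Musk (ENSMUSG00000057280; GRCm38 chromosome 4, 58285960 to 58374303, + strand) rose in labelled strNrip1-/- EDL. In sedentary labelled WT libraries it stood at 1.17, 0.67 and 0.82 FPKM, and in sedentary labelled strNrip1-/- libraries at 2.85, 3.79 and 2.78 FPKM. Trained labelled WT libraries held 1.02, 1.01 and 0.71 FPKM, and trained labelled strNrip1-/- libraries 3.16, 3.73 and 2.84 FPKM. Every labelled strNrip1-/- library lay above every labelled WT library, in both training states. The group means were 0.889 ± 0.255 and 3.14 ± 0.565 FPKM in sedentary muscle and 0.912 ± 0.175 and 3.24 ± 0.451 FPKM in trained muscle (SD, n = 3), ratios of 3.53 and 3.56. On the log2(FPKM + 0.5) scale the difference was 1.39 in sedentary libraries (95% interval 1.02 to 1.77; limma adjusted p = 0.00141) and 1.41 in trained libraries (1.03 to 1.78; adjusted p = 0.00126). Over both states it was 1.40 (SE 0.121; adjusted p = 5.14e-05), rank 35 of 12744 genes by p. If all fragments lay on its longest transcript (3422 nt), the labelled WT values rested on 50.7 to 84.8 fragments and the labelled strNrip1-/- values on 199.6 to 294.1. In bulk muscle, more cells or nuclei that transcribe a gene and more RNA in each cannot be told apart. The study had named Musk from these same libraries, so its rise is not independent evidence.

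**Figure D1:**
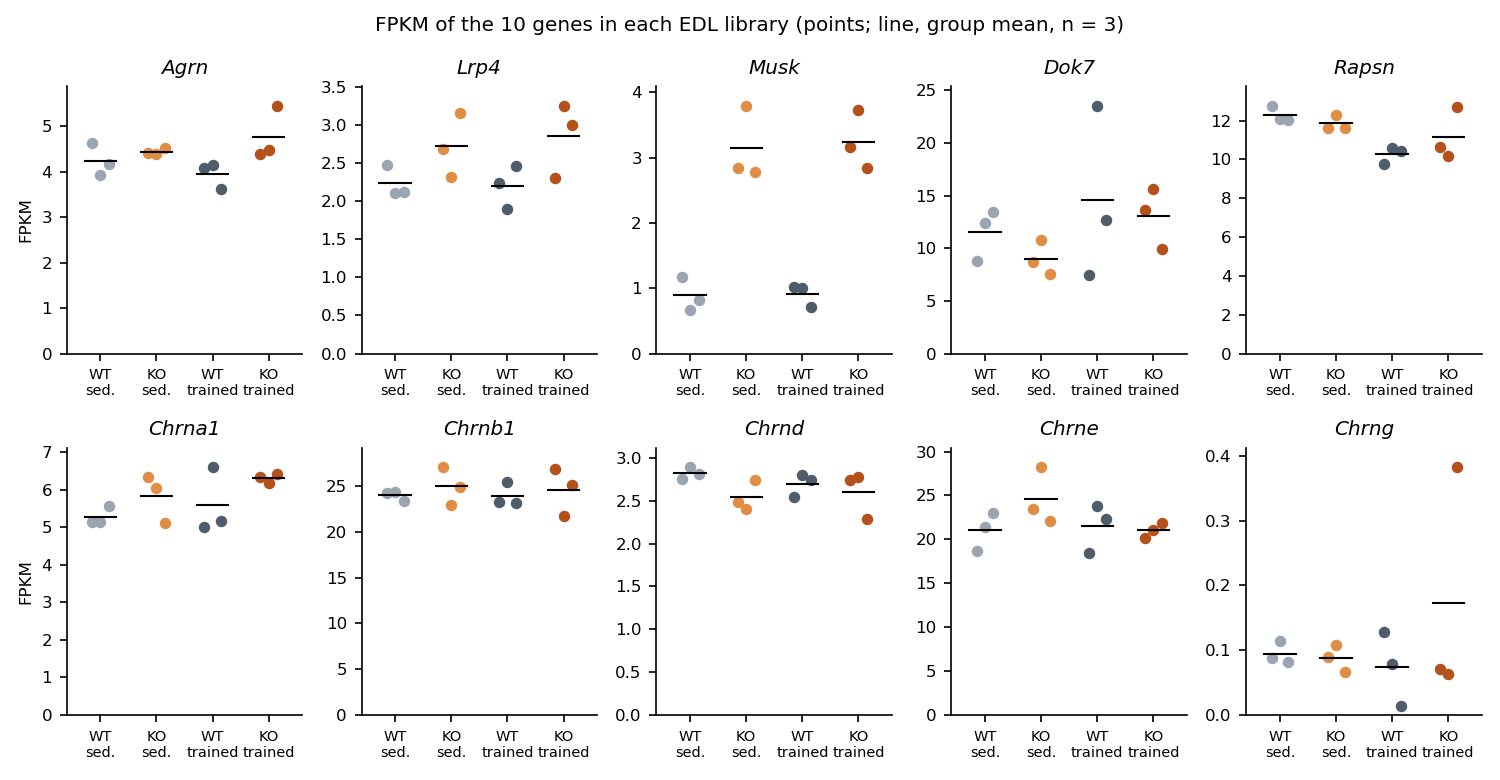
FPKM (y axis, from 0) of the 10 genes in each of the 12 EDL libraries, by group (x axis; WT and KO as labelled, sed., sedentary). Points are libraries and lines are group means (n = 3). Musk in the 6 labelled strNrip1-/- libraries lies at 2.78 to 3.79 FPKM, apart from 0.67 to 1.17 FPKM in the labelled WT libraries, and none of the other 9 genes separates the genotypes in both training states.

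Musk was the only member called in any comparison. A gene was called at an adjusted p under 0.05 and a fold above 1.2, and 9 members passed the filter of a mean of 0.5 FPKM, all but Chrng. In sedentary libraries 1 of these 9 was called, against 3.51% of all 12744 genes tested. In trained libraries 1 of 9 was called, against 5.98% of all genes. Over both states 1 of 9 was called against 8.80% of all genes, that is 1 member higher against 4.90% of genes and 0 lower against 3.91%. Groups did not overlap for 2 of 9 members in sedentary libraries (Musk and Chrnd) and for 2 of 9 in trained libraries (Musk and Agrn), while 20.7% and 27.3% of all genes had groups that did not overlap. The median log2 difference of the 9 members over both states was 0.10, against 0.00340 for all genes tested.

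Agrin itself differed little. Agrn (chromosome 4, 156165290 to 156197488, - strand), which is made by muscle as well as by nerve and of which only the neural splice form activates MuSK strongly, stood at 4.62, 3.93 and 4.16 FPKM in sedentary labelled WT libraries and at 4.41, 4.4 and 4.51 FPKM in sedentary labelled strNrip1-/- libraries. Trained labelled WT libraries held 4.08, 4.15 and 3.62 FPKM, and trained labelled strNrip1-/- libraries 4.38, 4.48 and 5.45 FPKM. The sedentary groups overlapped and the trained groups did not, with the trained labelled strNrip1-/- libraries higher. The log2 difference was 0.06 in sedentary libraries and 0.24 in trained libraries (95% interval 0.01 to 0.47; unadjusted p = 0.0389), which did not pass the adjustment over all genes (adjusted p = 0.207). Splice forms were not separated, since the values are sums over transcripts of a gene.

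Lrp4 (chromosome 2, 91457511 to 91513779, + strand), the agrin receptor, came nearest to Musk in its pattern among the partners. It stood at 2.48, 2.11 and 2.12 FPKM in sedentary labelled WT libraries and at 2.69, 2.32 and 3.16 FPKM in sedentary labelled strNrip1-/- libraries. In trained libraries it stood at 2.24, 1.9 and 2.46 FPKM with the WT label and at 2.31, 3.26 and 3.01 FPKM with the strNrip1-/- label. The groups overlapped in both training states. The difference over both states was 0.27 on the log2 scale (95% interval 0.05 to 0.50), with an unadjusted p of 0.0229 and an adjusted p of 0.127 (limma). It kept its sign under all 22 alternatives, with adjusted p from 0.0639 to 0.394.

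Dok7 (chromosome 5, 35056766 to 35087839, + strand), the adaptor of MuSK, was the most variable partner. Its sedentary values were 8.82, 12.4 and 13.5 FPKM in labelled WT libraries and 8.68, 10.8 and 7.53 FPKM in labelled strNrip1-/- libraries. Its trained values were 7.43, 23.5 and 12.7 FPKM and 13.6, 15.6 and 9.92 FPKM. The groups overlapped in both states, and the trained labelled WT group alone spanned 7.43 to 23.5 FPKM. The log2 differences were -0.34 (95% interval -1.07 to 0.40) and -0.03 (-0.76 to 0.70), neither past the threshold. The highest Dok7 value came from labelled WT trained replicate 2, the library with the highest sum of slow muscle markers (574 FPKM). Without this library the trained difference was 0.38 (adjusted p = 0.455), and the part of the slow marker level in it was not tested.

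Rapsn (chromosome 2, 91035620 to 91045729, + strand), the receptor scaffold, was among the steadiest members. Sedentary libraries held 12.8, 12.1 and 12.01 FPKM with the WT label and 11.6, 12.3 and 11.6 FPKM with the strNrip1-/- label. Trained libraries held 9.78, 10.6 and 10.5 FPKM and 10.6, 10.2 and 12.7 FPKM. The genotypes overlapped in both training states, and the differences were -0.05 (95% interval -0.24 to 0.14) and 0.11 (-0.08 to 0.30) on the log2 scale. The sign in sedentary libraries turned to 0.03 when libraries were scaled to the same sum over nuclear genes. An antisense transcript, Gm13778, overlaps exons of Rapsn, and with a library kit that does not keep strand its fragments could not be told apart from those of Rapsn.

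The receptor subunits stood at very unequal levels, and none of the 4 tested was called between genotypes. Chrnb1 (β1) was the highest, at 21.7 to 27.0 FPKM, and Chrne (ε) lay beside it at 18.4 to 28.2 FPKM. Chrna1 (α1), which carries most of the acetylcholine binding site and is present in 2 copies per receptor, stood at 5.01 to 6.60 FPKM, and Chrnd (δ) at 2.28 to 2.89 FPKM. As shares of the FPKM summed over the 5 subunits, Chrnb1 took 38.4% to 47.8%, Chrne 35.9% to 47.2%, Chrna1 9.32% to 11.9% and Chrnd 4.03% to 5.41%. The summed level was 53.2 ± 2.07 and 58.0 ± 2.65 FPKM in sedentary labelled WT and labelled strNrip1-/- muscle, and 53.7 ± 4.67 and 54.7 ± 2.47 FPKM in trained muscle (SD, n = 3). These ranges overlapped in trained libraries, and in sedentary libraries the labelled strNrip1-/- values of 54.9, 59.3 and 59.7 FPKM lay just above the highest labelled WT value of 54.8 FPKM.

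Chrna1 stood at 5.13, 5.13 and 5.56 FPKM in sedentary labelled WT libraries and at 6.34, 6.05 and 5.12 FPKM in sedentary labelled strNrip1-/- libraries. In trained libraries it stood at 5.01, 6.60 and 5.18 FPKM and at 6.36, 6.19 and 6.44 FPKM. The groups overlapped in both states, and the log2 difference over both was 0.15 (95% interval -0.02 to 0.32; adjusted p = 0.278). In sedentary libraries its difference of 0.13 turned to -0.01 when libraries were scaled to the same FPKM sum.

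Chrnb1 held 24.2, 24.3 and 23.4 FPKM against 27.0, 22.9 and 24.9 FPKM in sedentary libraries (labelled WT first). In trained libraries it held 23.2, 25.4 and 23.1 FPKM against 26.9, 21.7 and 25.1 FPKM. It had the narrowest range of all members, its highest library at 1.25 times its lowest, and its difference over both states was 0.05 (95% interval -0.09 to 0.18), or -0.00022 with libraries scaled to the same sum.

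Chrnd held 2.75, 2.89 and 2.81 FPKM in sedentary labelled WT libraries and 2.48, 2.41 and 2.74 FPKM in sedentary labelled strNrip1-/- libraries. These groups did not overlap, with the labelled strNrip1-/- libraries lower by values that did not pass the test (log2 difference -0.13; adjusted p = 0.624). In trained libraries it held 2.54, 2.80 and 2.74 FPKM and 2.74, 2.78 and 2.28 FPKM, and the groups overlapped (log2 difference -0.05, or 0.01 when scaled to the same sum).

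Chrne, the subunit that marks the adult receptor, held 18.7, 21.4 and 23.0 FPKM in sedentary labelled WT libraries and 23.4, 28.2 and 22.1 FPKM in sedentary labelled strNrip1-/- libraries. In trained libraries it held 18.4, 23.8 and 22.3 FPKM and 20.1, 21.1 and 21.8 FPKM. Both pairs of groups overlapped, and the log2 differences were 0.22 (95% interval -0.04 to 0.48) and -0.02 (-0.28 to 0.24). The gene 4930544D05Rik lies within Chrne on the opposite strand, without exon overlap, at a mean of 3.57 FPKM.

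Chrng, the fetal subunit, lay below the filter and was not tested. It stood at 0.01 to 0.13 FPKM in 11 libraries, worth about 1.0 to 7.9 fragments on its longest transcript (2780 nt). Labelled strNrip1-/- trained replicate 3 stood apart at 0.38 FPKM, about 26.4 fragments. The ratio of Chrne to Chrng had a median of 271 over the 12 libraries and was 57.1 in that library. The embryonic myosin Myh3 stood at 1.11 FPKM and the myogenic factor Myog at 1.64 FPKM in that library, both within the range of the other libraries.

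**Figure D2:**
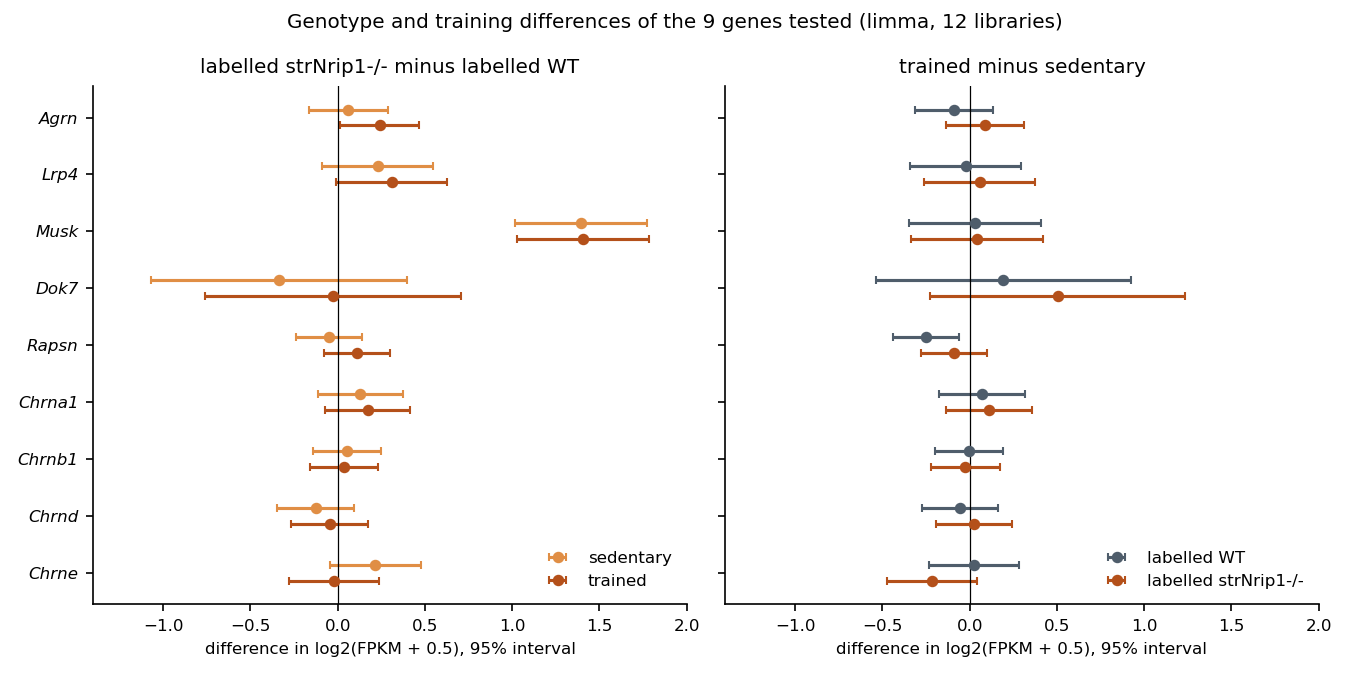
Differences in log2(FPKM + 0.5) for the 9 members tested (y axis), with 95% intervals from limma on 12 libraries. Left, labelled strNrip1-/- minus labelled WT in sedentary and trained libraries; right, trained minus sedentary in each labelled genotype. The genotype intervals of Musk begin at 1.02 and 1.03, above the upper end of every partner's genotype interval, the highest of which is 0.70 for trained Dok7.

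Whether Musk differed more than each partner was tested directly. The log2 ratio of Musk to each of the 8 tested partners was formed in every library, and genotype labels were permuted within each training state. For all 8 partners the ratio was higher with the strNrip1-/- label, by 1.13 for Lrp4, 1.25 for Agrn and Chrna1, 1.30 for Chrne, 1.36 for Chrnb1, 1.37 for Rapsn, 1.49 for Chrnd and 1.58 for Dok7. Each exact two-sided permutation p was 0.005, the smallest that 400 arrangements can give, and 0.005 after adjustment over the 8 partners. In each state every labelled strNrip1-/- library lay above every labelled WT library. All 8 ratios hold the same Musk values, which separated the labelled genotypes without any partner. The 8 p-values are therefore not independent of each other and largely restate that separation. In FPKM, Musk stood at 0.319 to 0.473 of Lrp4 in sedentary labelled WT libraries and at 0.880 to 1.64 of Lrp4 in sedentary labelled strNrip1-/- libraries. In trained libraries the ratio was 0.288 to 0.531 and 0.944 to 1.36.

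**Figure D3:**
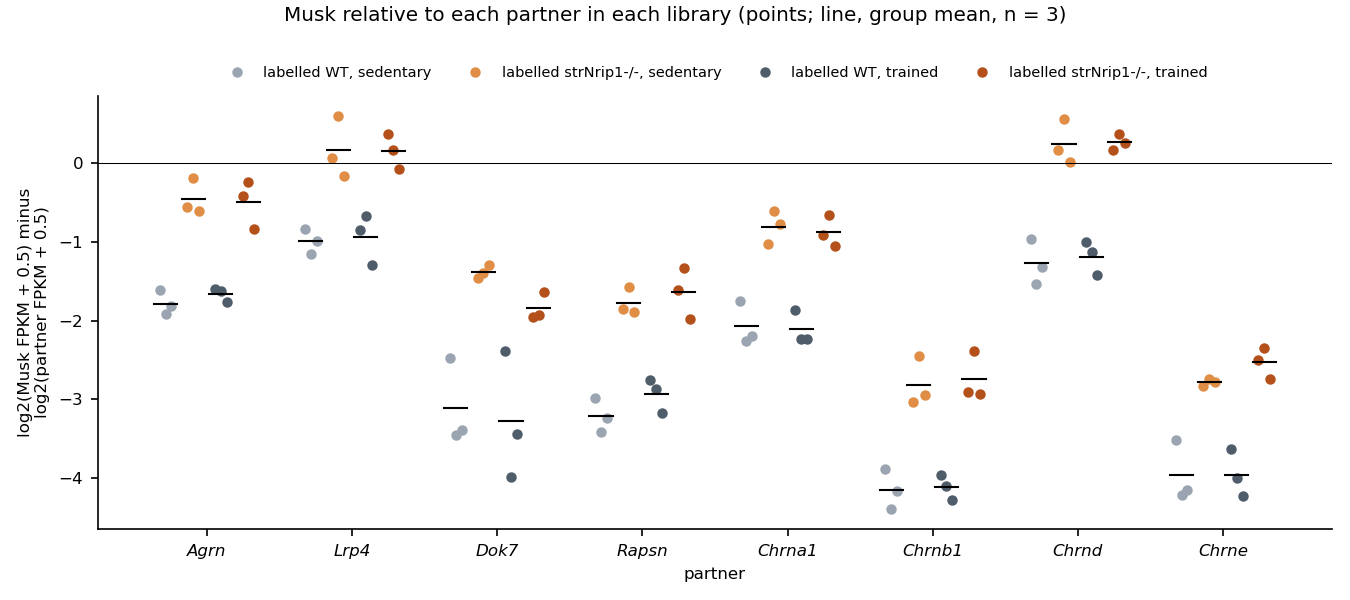
Log2(Musk FPKM + 0.5) minus log2(partner FPKM + 0.5) on the y axis for each partner on the x axis. Points are the 12 libraries, colored by group, and lines are group means (n = 3). For all 8 partners the labelled strNrip1-/- points lie above the labelled WT points of the same training state, with mean shifts of 1.13 to 1.58.

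Training changed none of the members past the threshold. Of the 9 members, 0 were called by training in labelled WT libraries and 0 in labelled strNrip1-/- libraries, and limma called 0% of all genes in both (1061 and 1544 genes had an unadjusted p under 0.05). Without labelled WT trained replicate 1 the count over all genes was 30 for training in labelled WT, and no member was among the calls. Musk differed by 0.03 (95% interval -0.35 to 0.41) in labelled WT and by 0.04 (-0.33 to 0.42) in labelled strNrip1-/- libraries on the log2 scale. These intervals exclude a change with training as large as its genotype difference. Groups did not overlap for 1 of 9 members in labelled WT libraries (14.3% of all genes), which was Rapsn, lower in trained libraries by values that failed the adjustment (log2 difference -0.25; unadjusted p = 0.0148; adjusted p = 0.492). In labelled strNrip1-/- libraries the only such member was Chrne (16.9% of all genes), at -0.21 (adjusted p = 0.503). Dok7 had the widest training interval, -0.23 to 1.24 around 0.50 in labelled strNrip1-/- libraries. For the genotype by training interaction 0 of 9 members were called and 0% of all genes (989 with an unadjusted p under 0.05), and Musk stood at 0.01 (-0.52 to 0.55).

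The members differed in level over a wide range, and part of their order held in every library. The means were 24.3 FPKM for Chrnb1, 22.03 for Chrne, 12.03 for Dok7, 11.4 for Rapsn, 5.76 for Chrna1, 4.35 for Agrn, 2.66 for Chrnd, 2.50 for Lrp4, 2.05 for Musk and 0.107 for Chrng. Within a library, Chrne stood above Dok7, Rapsn above Chrna1, Chrna1 above Agrn, Agrn above Chrnd and Musk above Chrng in all 12 libraries, and Chrnb1 stood above Chrne in 11. The other neighbours had no fixed order. Dok7 was above Rapsn in 6 of 12 libraries, Chrnd above Lrp4 in 8 and Lrp4 above Musk in 8. Ranges over all 12 libraries overlapped for each of these pairs, but also for Chrne and Dok7 and for Chrna1 and Agrn. Overlap of ranges is thus no test of the order within a library. The place of Musk within its trio depended on the label: it lay below Lrp4 in all 6 labelled WT libraries and above Chrnd in all 6 labelled strNrip1-/- libraries. The highest library stood at 5.63 times the lowest for Musk, 3.17 times for Dok7 and 1.25 to 1.72 times for the other 7 members tested.

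Genes with a profile most like that of Musk were sought among the other 12743 genes tested, by the root mean square difference of centred log2(FPKM + 0.5) over the 12 libraries. The nearest was Wfs1, which encodes wolframin of the endoplasmic reticulum, at a difference of 0.206. Wfs1 stood at 27.1 ± 2.54 and 74.8 ± 1.54 FPKM in sedentary and at 29.7 ± 3.28 and 84.2 ± 1.77 FPKM in trained libraries (labelled WT first; SD, n = 3). Sctr, the secretin receptor, followed at 0.216, then Chrna4 at 0.220, Lrrc27 at 0.242 and Tmem234 at 0.243. Sctr rose from 1.07 ± 0.158 to 3.32 ± 1.29 FPKM in sedentary libraries, and Tmem234 from 46.6 ± 4.38 to 114 ± 31.1 FPKM. No partner came near: Lrp4 ranked 966 of 12743 by likeness (0.613), Agrn 1689, Chrna1 1758, Chrne 3207, Chrnb1 4251, Rapsn 4672, Chrnd 7494 and Dok7 11605 (0.908).

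The wider pathway was described with 7 lists of 90 genes, of which 84 were in the table and 75 passed the filter. Over both training states 3 of the 75 were called higher with the strNrip1-/- label, against 4.90% of all genes tested, and 3 lower, against 3.91%, so the lists together were called at about the share of all genes. By training 0 were called. Among 25 MuSK signalling effectors (kinases, small GTPases and cytoskeletal adaptors downstream of MuSK) 0 were called, against 8.80% of all genes, and their median log2 difference was 0.01. The cochaperone Dnaja3, which binds MuSK, was singled out after its values were seen: it stood at 45.4 to 51.7 FPKM in labelled WT and 56.2 to 59.2 FPKM in labelled strNrip1-/- libraries, without overlap. Its log2 difference of 0.25 passed the adjusted p (0.00442) but not the fold of 1.2. It was called under 3 of 22 alternatives, and its limma adjusted p rose to 0.0605 under another.

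Of 19 genes of the synaptic basal lamina and postsynaptic scaffold, 1 was called over both states, where 8.80% of all genes were, and the median difference was 0.01. Itga7, a laminin-binding integrin subunit, fell by 0.31 on the log2 scale (adjusted p = 0.0149), from 36.2 to 42.4 FPKM in labelled WT libraries to 27.8 to 36.2 FPKM in labelled strNrip1-/- libraries. Ache, which breaks down acetylcholine in the cleft, and Dtna, which encodes α-dystrobrevin, were singled out after their values were seen. Ache differed by -0.25 (adjusted p = 0.0446) and Dtna by -0.26 (adjusted p = 0.0163), both under the fold of 1.2. Both lay near the threshold: Ache was called under 2 and Dtna under 8 of 22 alternatives. Their limma adjusted p rose to 0.111 and 0.120 under others. Among 8 tested genes of subsynaptic transcription (neuregulin receptors, GABP subunits and Ets factors) 0 were called, against 8.80% of all genes. Their median difference was 0.03.

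Of 12 tested genes that respond to denervation, 1 rose (4.90% of all genes) and 1 fell (3.91% of all genes), too few to set apart from those shares, and the median difference over both states was -0.00251. Dach2, a transcriptional repressor that is normally lowered by denervation, stood at 0.15, 0.28 and 0.19 FPKM in sedentary labelled WT libraries and at 0.89, 0.91 and 0.73 FPKM in sedentary labelled strNrip1-/- libraries. Trained libraries held 0.50, 0.61 and 0.34 FPKM and 0.84, 0.72 and 1.15 FPKM. Its log2 difference over both states was 0.72 (adjusted p = 0.00308), or 1.205 with a pseudocount of 0.1 and 0.48 with a pseudocount of 1, and with a mean under 1 FPKM it was not tested under the stricter filter. In trained libraries alone it was not called (0.51; adjusted p = 0.105). Trim63, the ubiquitin ligase MuRF1, fell by 0.44 (adjusted p = 0.0190), from 96.2 to 117 FPKM in labelled WT to 68.0 to 108 FPKM in labelled strNrip1-/- libraries, and missed the threshold without the 3 libraries high in slow muscle markers (adjusted p = 0.0607). Myog, which activates receptor genes after denervation, stood at 1.55 to 2.27 FPKM over all libraries and was not called. Ncam1, singled out after its values were seen, ranged from 1.61 to 25.3 FPKM with high and low libraries in every group, and its genotype difference was 0.12 (95% interval -1.55 to 1.78).

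Of the other nicotinic receptor subunits, 6 of 11 were in the table and 2 passed the filter. Of these 2, 1 was called higher over both states, against 4.90% of all genes tested, too few to set apart from that share. Chrna4, the α4 subunit best known from neurons, rose from 0.99, 0.53 and 0.54 FPKM to 2.65, 2.82 and 2.07 FPKM in sedentary libraries, and from 0.87, 0.44 and 0.46 FPKM to 3.35, 2.68 and 3.24 FPKM in trained libraries. No labelled strNrip1-/- library overlapped a labelled WT library, and the log2 difference over both states was 1.55 (adjusted p = 5.80e-05). Chrna10 was not called. Chrna2, below the filter, was listed at 0 to 0.14 FPKM in labelled WT libraries and at 0.08 to 0.69 FPKM in labelled strNrip1-/- libraries. Of 4 tested Wnt ligands tied to receptor clustering, 1 was called higher over both states, against 4.90% of all genes, again too few to set apart. This was Wnt16, which rose from 0.88, 1.32 and 0.91 FPKM to 3.54, 2.28 and 2.66 FPKM in sedentary libraries. In trained libraries it rose from 1.09, 0.88 and 0.62 FPKM to 2.99, 4.89 and 4.78 FPKM. Its log2 difference over both states was 1.443 (limma adjusted p = 0.000141). Wnt4, Wnt9a and Wnt11, the other 3, were not called. The study named Chrna4, Chrna2 and Wnt16 from these libraries, so they are not independent evidence of the direction of their lists.

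Of 5 glycosylation genes whose loss causes congenital myasthenia, 1 was called, against 8.80% of all genes. Gfpt1, which catalyses the first step of the hexosamine pathway, stood at 8.06, 6.87 and 7.75 FPKM and at 5.27, 4.55 and 5.92 FPKM in sedentary libraries (labelled WT first). It stood at 8.22, 6.52 and 8.06 FPKM and at 5.11, 5.91 and 5.66 FPKM in trained libraries, and fell by 0.45 over both states (adjusted p = 0.00544). With libraries scaled to the same sum over nuclear genes, 0 pathway genes were called lower and Itga7, Trim63 and Gfpt1 all missed the threshold, while the 3 that rose did not. Mitochondrial transcripts took 51.2% to 52.8% of the FPKM sum in labelled strNrip1-/- sedentary libraries, against 42.2% to 47.3% in the others. The part of this share in the falls was not tested.

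**Figure D4:**
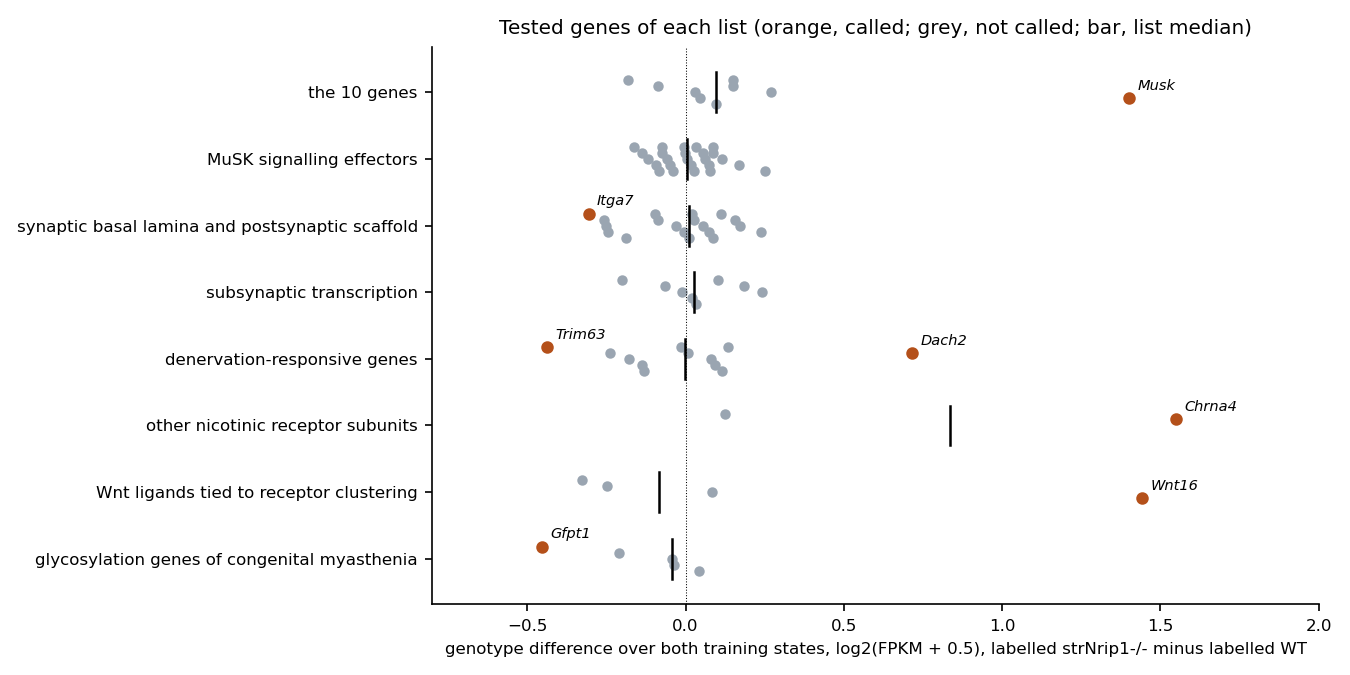
Genotype difference over both training states in log2(FPKM + 0.5) (x axis, labelled strNrip1-/- minus labelled WT) for the tested genes of each list (y axis). Orange points are called genes, grey points are not called and bars are list medians. Musk, Dach2, Chrna4 and Wnt16 lie to the right at 0.72 to 1.55, and the 3 genes called lower lie at -0.31 to -0.45.

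Markers of cell types moved as follows beside these results, and their part in the Musk difference was not tested. Of 8 fast muscle markers, 4 were called lower over both states (Actn3, Mylpf, Pvalb and Myh4), against 3.91% of all genes tested. Myh1, also of this list, went the other way and was not called. Its means were 1197 and 1395 FPKM in sedentary and 1760 and 2285 FPKM in trained libraries (labelled WT first). The 8 markers summed to 97707 to 108802 FPKM in sedentary labelled WT and 74557 to 98792 FPKM in sedentary labelled strNrip1-/- libraries. In trained libraries the sum ran from 95992 to 115746 and from 84144 to 88097 FPKM. Of 7 endothelial markers, Cdh5 and Tie1 were called higher, against 4.90% of all genes tested. Emcn, also of this list, had means of 6.81 and 8.54 FPKM in sedentary libraries (labelled WT first). In trained libraries it did not rise, with means of 6.03 and 5.90 FPKM. The endothelial sum was 72.9 to 87.9 FPKM in the labelled WT and 84.7 to 98.5 FPKM in the labelled strNrip1-/- groups. Of 8 tested Schwann cell markers 0 were called, against 8.80% of all genes. Their sum was 109 to 158 and 82.4 to 115 FPKM in sedentary and 77.9 to 104 and 92.7 to 137 FPKM in trained libraries. Among 3 tested satellite cell markers, 6 fibroblast, 5 macrophage and 6 slow muscle markers 0 were called, against 8.80% of all genes. Of 6 motor neuron markers only Snap25 was in the table, at 0 to 0.45 FPKM. Without the 3 libraries high in slow muscle markers, a comparison added after the values were seen, Musk still rose by 1.34 in sedentary (adjusted p = 0.0317), 1.46 in trained (adjusted p = 0.00918) and 1.40 over both states (adjusted p = 0.00168).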

How the data were processed

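Total RNA of whole EDL was sequenced as paired ends from unstranded libraries. The authors quantified reads with Salmon 1.10.2 against mm10, summed transcripts to genes with tximport and deposited FPKM values per gene and library, scaled between libraries, in a table whose processing notes also name DESeq2 1.44.0. The annotation release and the function that gave FPKM are not given in the sources used here. The table also holds the authors' own log2 fold changes and adjusted p-values for comparisons between groups, which were not used.

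Groups and replicate numbers came from the sample labels. Values were transformed to log2(FPKM + 0.5), a scale that understates changes of low genes, and genes averaging 0.5 FPKM or more across the 12 libraries (12744) were fitted with 4 group means in limma 3.58.1 (R 4.3.3; lmFit, contrasts.fit, and eBayes with a mean trend). Contrasts were genotype in each training state and over both, training in each genotype, and their interaction, all two-sided with Benjamini-Hochberg adjustment over all genes tested. The fit was tested on simulated data. Ratios of Musk to each partner were tested by exact two-sided permutation of genotype within training state (400 arrangements).

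The members, the 7 pathway lists and the marker lists were chosen with earlier results of these data known. The genes named are the 10 members, every pathway gene called in a genotype contrast and the 5 genes with the smallest root mean square difference to Musk; others are said to be singled out after their values were seen. Residuals of same-numbered libraries of different groups correlated at -0.105 to 0.241 (18 pairs, median -0.0095, 5 above 0.1). Libraries of different groups and numbers stood at -0.251 to 0.196 (36 pairs, median -0.00296, 3 above 0.1). Numbers were not taken to pair libraries, and a fit with the number as a block is given below. No pair of replicates held identical values. Depth was estimated in genes with 1 transcript from the steps between their low values, where 99.2% to 99.8% of values per library lay within 0.15 of a whole fragment. Fragment numbers speak to counting error only, and they rest on the estimated depth and on the longest transcript of each gene. Coordinates are from GENCODE M21 on GRCm38 and promoters from RefSeq on GRCm38.p6. Protein sequences were not used here.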

Additional observations from a re-analysis of the deposited data

How the results depend on the processing

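Musk stayed called in all 3 genotype contrasts under every alternative run (23, 23 and 22), from 1.13 to 1.73 in sedentary, 1.15 to 1.73 in trained and 1.14 to 1.73 over both states on the log2 scale, and no partner was called under any of them. The Musk to partner ratios kept their direction and adjusted p of at most 0.01 with a pseudocount of 0.1 or 1 and without each library. The values of partners near 0 turned sign as follows. With libraries scaled to the same FPKM sum, which moved the median of all genes by -0.14 (sedentary genotype), 0.16 (training in labelled strNrip1-/-) and 0.20 (interaction), Agrn stood at -0.078, Chrna1 at -0.015 and Chrnb1 at -0.099 in sedentary genotype, Dok7 at 0.035, Chrnd at 0.0073 and Chrne at 0.039 in trained genotype, Rapsn at -0.015 and Chrnb1 at -0.00022 over both, and Musk at -0.0029 for training in labelled WT. That scaling called 5 pathway genes lower over both states. Scaling to the same sum of nuclear genes called 0 lower and put Rapsn at 0.027 (sedentary genotype), Dok7 at 0.00997 and Chrne at 0.0136 (trained genotype) and Musk at -0.0165 (interaction). Quantile normalization put Musk at -0.0135 for the interaction. Without the 3 libraries high in slow muscle markers, chosen after seeing the data, Dok7 stood at 0.38 and Chrne at 0.052 in trained genotype, Dok7 at 0.061 over both, and Musk at -0.13 and -0.0113 for training in labelled WT and labelled strNrip1-/-.

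Leaving out 1 library at a time, genotype differences ran from -0.0028 to 0.11 for Chrnb1 in sedentary libraries, and in trained libraries from -0.42 to 0.38 for Dok7, -0.031 to 0.12 for Chrnb1, -0.088 to 0.0299 for Chrnd and -0.13 to 0.052 for Chrne. Over both states they ran from -0.38 to 0.0236 for Dok7 and -0.0157 to 0.0601 for Rapsn. For Musk they ran from -0.083 to 0.17 and -0.048 to 0.17 for training in labelled WT and labelled strNrip1-/-, and from -0.13 to 0.14 for the interaction. Pathway genes called lower numbered 3 to 5, with 5 without labelled WT sedentary replicate 2 or labelled WT trained replicate 1. The cause was not tested for any of these. Calls over all genes moved from 447 in sedentary genotype to 163, 222 and 216 without labelled WT sedentary replicates 1, 2 and 3 and to 260 without labelled strNrip1-/- sedentary replicate 1, and from 762 in trained genotype to 385 without labelled WT trained replicate 1 or 3 and to 333 and 315 without labelled strNrip1-/- trained replicates 2 and 3. With only the 6 libraries compared they were 166 and 445. Training in labelled WT called 30 genes without labelled WT trained replicate 1 and 0 to 5 under the other alternatives. Training in labelled strNrip1-/- called 150 genes with libraries scaled to the same sum and 0 to 4 under the others, and the interaction called 0 or 1.

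With the replicate number as a block, Musk differed by 1.39, 1.41 and 1.40 (adjusted p = 0.00373, 0.00285 and 0.000174) and 1 member was called in each genotype contrast, as without it; the block moved no count of calls by over 1.5 times except training in labelled WT, with 4 genes against 0. Pathway genes called higher numbered 2 to 4 and no named pathway gene changed direction. Calls in sedentary libraries alone were less stable. Gfpt1 lost its call there under 16 of 23 alternatives and Dach2 under 5 of 22. Wnt16 lost it under 4 of 23 and Chrna4 under 1 of 23. In the main fit Itga7 and Trim63 were called in neither training state alone, and Gfpt1 was not called in trained libraries. At 50.7 to 84.8 fragments in labelled WT libraries the Musk level there is less precise than its level in labelled strNrip1-/- libraries, and Chrng, at 1.0 to 7.9 fragments in 11 libraries, was too low to compare.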

Other observations

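Other genes of the synapse differed in how widely they ranged over the libraries. The neuregulin receptors Erbb2 and Erbb3 stood at 0.675 to 1.35 and 1.27 to 2.18 FPKM over the 12 libraries, and the Ets factors Gabpa and Etv5 at 4.97 to 6.51 and 4.47 to 5.99 FPKM. Colq, the collagen tail that anchors acetylcholinesterase, stood at 3.41 to 5.31 FPKM, Lamb2, the laminin β2 of synaptic basal lamina, at 33.0 to 44.4 FPKM, and Utrn, which encodes utrophin, at 3.27 to 4.65 FPKM. Wider ranges were held by Plec, which encodes plectin, at 57.8 to 132 FPKM, Nid2, a nidogen of the basal lamina, at 2.38 to 4.95 FPKM, Etv4, an Ets factor, at 0.88 to 2.47 FPKM, and the integrin subunit Itga3, at 1.18 to 4.18 FPKM with its highest value in labelled strNrip1-/- trained replicate 3. These 11 genes were picked after their values were seen, and none was called by genotype or training. Ncam1 was at 11.3 to 25.3 FPKM in 5 libraries, at 6.83 FPKM in 1 and at 1.61 to 2.01 FPKM in the other 6, and high libraries occurred in all 4 groups.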
